A study of Mus musculus with 8 samples.

Results

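Interferon beta (IFNβ) was given to L929 cells with ectopic IRF8 (L929IRF8) and to L929 cells without it, and the genes that read lower, near equal or higher in L929IRF8 were sought. The members are the Illumina probes whose mean intensity over the 4 IFNβ arrays, 2 of each line, lies above 23.7, which is the size of the lowest deposited value and serves here as the bound of background. They number 11341 of 25697 probes (44.1%). Of these, 10690 carry a gene symbol and stand for 7682 of the 16593 named genes on the array, and 651 are unnamed. The mean of the lowest member was 23.7 and that of the highest probe left out was 23.68. The bound was passed through 1 line alone by 51 members whose L929IRF8 arrays both lay at or under it and by 50 members whose L929 arrays did.

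L929 is a mouse fibroblast line. Both lines received IFNβ at 1000 U/ml for 4 h, and both were also measured untreated, which gives 4 groups with 2 arrays each: L929IRF8 with IFNβ, L929 with IFNβ, L929IRF8 untreated and L929 untreated. The labels call the replicates independent. They do not say how IRF8 was introduced, whether L929IRF8 is a clone, or whether the L929 cells carry an empty vector, so IRF8 cannot be told apart from other differences between the lines. P-values measure the spread between these arrays, and the number of arrays limits the precision of every value.

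Type I interferon binds its receptor on the cell surface and activates kinases of the JAK family. The transcription factor complex ISGF3, of which IRF9 is the main DNA-binding part, then binds a DNA element built on a repeat of GAAA, the interferon-stimulated response element, beside many antiviral genes. IRF8, one of the interferon regulatory factors (IRFs), binds DNA and normally acts in myeloid cells and B cells. It binds such elements weakly alone and better together with partner proteins, and it is known both to activate and to repress genes.

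Promoters of 8 interferon genes with an upstream match show the response element in genes of both kinds: the 4 with the lowest ratios among those classed lower, and the 4 brightest of those classed near equal. The ISRE-like core was spelled GAAANNGAAA and searched on both strands from 250 bases before to 50 after each RefSeq start (GRCm38.p6). Each line gives 100 upstream bases on the gene's strand, 5′ to 3′, with the core in capitals. A core on the other strand reads as its reverse complement.
Gbp2 (chr3:142620524-142620623, plus strand): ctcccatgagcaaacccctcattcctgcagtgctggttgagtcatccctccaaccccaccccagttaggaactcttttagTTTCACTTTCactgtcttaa
Gbp2b (chr3:142594630-142594729, plus strand): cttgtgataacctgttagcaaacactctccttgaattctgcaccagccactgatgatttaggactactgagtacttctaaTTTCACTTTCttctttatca
Gbp7 (chr3:142530203-142530302, plus strand): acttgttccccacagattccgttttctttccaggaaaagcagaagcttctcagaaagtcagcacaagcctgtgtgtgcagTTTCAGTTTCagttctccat
Tgtp1 (chr11:48992304-48992403, minus strand): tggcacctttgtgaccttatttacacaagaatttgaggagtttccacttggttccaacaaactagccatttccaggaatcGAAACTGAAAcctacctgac
Irgm1 (chr11:48871425-48871524, minus strand): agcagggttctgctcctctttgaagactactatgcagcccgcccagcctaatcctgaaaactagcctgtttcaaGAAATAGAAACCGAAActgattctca
B2m (chr2:122147468-122147567, plus strand): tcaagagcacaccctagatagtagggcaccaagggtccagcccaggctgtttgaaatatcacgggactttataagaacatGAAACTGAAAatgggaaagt
Ifitm2 (chr7:140955988-140956087, minus strand): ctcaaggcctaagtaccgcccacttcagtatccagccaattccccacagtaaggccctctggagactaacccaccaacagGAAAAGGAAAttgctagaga
Irf2 (chr8:46739495-46739594, plus strand): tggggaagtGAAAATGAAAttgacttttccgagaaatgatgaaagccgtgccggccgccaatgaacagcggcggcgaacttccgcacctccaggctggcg
The first 4 belong to genes classed lower in L929IRF8 and the last 4 to genes classed near equal, as described further on. In untreated L929 the first 4 lay under the bound on both arrays. The last 4 were already bright there, with replicates 1 and 2 at 17407.3 and 19300.2 for Irgm1 and 18601.7 and 14869.8 for B2m. Ifitm2 read 5875.9 and 5369.5, and Irf2 2585.7 and 2386.1. Irgm1 holds 2 overlapping cores. Within the interferon lists both classes held genes already bright in untreated L929. Psmb10, classed lower, read 530.7 and 485.2 there, and Irf3, classed near equal, 1188.9 and 1275.8. The classes were not matched for their response to IFNβ. Among genes of the interferon lists with a promoter window, the core stood in 9 of 14 classed lower (64.3%) and 12 of 40 classed near equal (30.0%). It stood in 10 of 80 of all genes classed lower (12.5%), and 9 of these 10 are the interferon-list genes just given. It stood in 2 of 62 classed higher (3.2%), beside 4.1% of genes above the bound and 4.0% of all 27025 genes with a window. A second core, GGAANNGAAA, which cannot share its first base with the ISRE-like core but may overlap it, was found in 2 of the 14 (14.3%) and 5 of the 40 (12.5%), beside 3.2% of all genes. The gamma-activated core TTCNNNGAA stood in 3 of the 14 (21.4%) and 8 of the 40 (20.0%), beside 9.6% of all genes. Such matches are a description of these letters, and no test of them was made.

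Irf8 has 1 probe on the array, ILMN_2673369. Here and in what follows, 2 values of a group are those of replicates 1 and 2, in that order. After IFNβ it read -0.2 and 1.0 in L929IRF8, and 3.5 and 7.8 in L929. Untreated L929IRF8 read 6.3 and -1.5, and untreated L929 -2.3 and 4.4. All 8 values lie under the bound, so the probe is no member. Whether it lies within the introduced sequence is not known, and the label of ectopic IRF8 was not checked by it.

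Fibroblast markers were present in both lines. Of 9 fibroblast markers on the array 8 were above the bound, and their summed intensity was 27616.0 and 29713.7 on the L929IRF8 arrays, against 29816.0 and 28638.5 on the L929 arrays. The mesenchymal filament gene Vim and the matrix gene Sparc were among the bright ones. Thy1 was at background on all 4 arrays. Of 9 macrophage and myeloid markers 2 were above it, Cd14 and Lyz2, with sums over the 9 of 180.5 and 141.5 in L929IRF8, against 187.9 and 108.3 in L929, and the defining markers Ptprc, Spi1, Itgam and Adgre1 read under 10 on each array. In a longer list 5 of 21 macrophage and myeloid markers were above the bound, among them Ly6c1, a surface protein that other cells carry too, at 5619.2 and 4096.8 in L929IRF8 and 6083.5 and 3920.7 in L929. None of 4 lymphoid markers was above the bound, and 1 of 14 in a longer list was, Cd3g. Their part in the results was not tested. In bulk RNA such as this, fewer cells of a type and less RNA per cell cannot be told apart.

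The largest class held genes that read nearly the same in both lines. A gene is represented by its brightest member probe, and values at or under the bound were raised to it. It was classed lower where both L929IRF8 arrays lay under both L929 arrays and the ratio of geometric means was at or under 1/1.5, higher in the mirror case, and near equal where the lines were within 1.2-fold in the mean and under each replicate number. By these rules 105 of 7682 genes were lower (1.37%), 4280 near equal (55.7%) and 75 higher (0.976%). The other 3222 met none of the rules, through a middling ratio, arrays that overlapped or replicate numbers that disagreed. At least 2-fold were 27 of the lower genes and 6 of the higher. The median log2 difference, L929IRF8 minus L929, was 0.00 over all genes, with the 5th and 95th percentiles at -0.37 and 0.37.

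**Figure D1:**
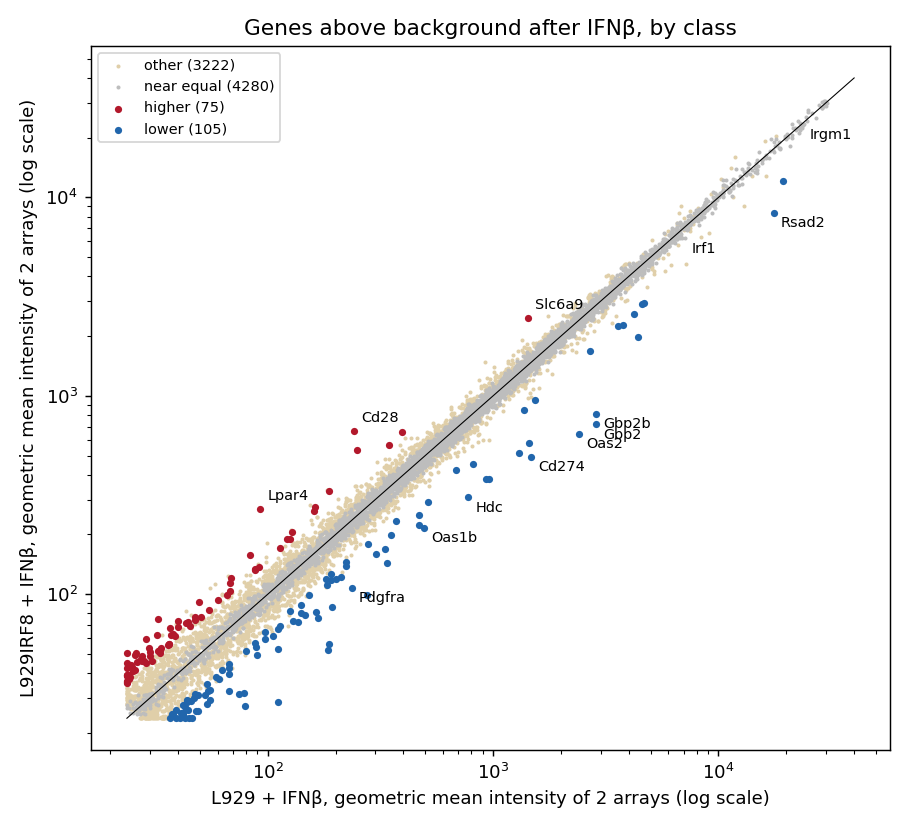
Geometric mean intensity of each gene after IFNβ, L929IRF8 on the vertical and L929 on the horizontal axis, both on log scales, over 2 arrays a line, with colours for the 4 classes. The 105 lower genes reach into the bright range with Rsad2, Gbp2 and Oas2, while the higher genes, apart from Slc6a9, lie under 1000 intensity units.

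In the limma test, a linear model with 1 coefficient a group fitted to all 8 arrays on log2(intensity + 16), 1 of 25697 probes passed an adjusted p of 0.05 (0.00389%). It is a member and was lower, so 0.00882% of the 11341 member probes passed as lower and 0 (0%) as higher. In this fit, which has no term for the replicate number, an unadjusted p under 0.05 was reached by 1283 probes, where chance alone gives 1284.9, and 553 of them were members. The lower and higher classes are descriptions of these 4 arrays, with no test. For 4058 of the 4280 near equal genes the 95% interval of the limma difference lay within 2-fold either way, as it did for 6493 of all 7682 genes.

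Arrays of the same replicate number were more alike than arrays of the same line. Over the member probes, log2 intensities of the same replicate number correlated at 0.991 (replicate 1) and 0.9908 (replicate 2) between the lines. Within a line the 2 arrays correlated at 0.9831 for L929IRF8 and 0.9851 for L929. A gene's median absolute log2 difference was 0.16 and 0.15 between the lines under replicates 1 and 2, and 0.24 and 0.21 between the arrays of L929IRF8 and of L929. In both lines 65 genes differed at least 2-fold between the replicate numbers, 64 of them in one direction, and 57 were higher in replicate 1 and 7 in replicate 2. Among these 65 genes 1 was classed lower between the lines, 0 higher and 22 near equal.

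Chemokine and early response genes show this. Cxcl1, which attracts neutrophils, read 4772.2 and 763.6 in replicates 1 and 2 of L929IRF8, and 3261.0 and 548.4 in L929. Cxcl9, which attracts T cells, read 1422.4 and 331.0 in L929IRF8, and 1530.9 and 394.9 in L929. Egr1, an immediate early transcription factor, read 2135.9 and 593.7 in L929IRF8, and 2420.3 and 742.8 in L929. In each, replicate 1 was far above replicate 2 in either line, and the lines overlapped.

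**Figure D2:**
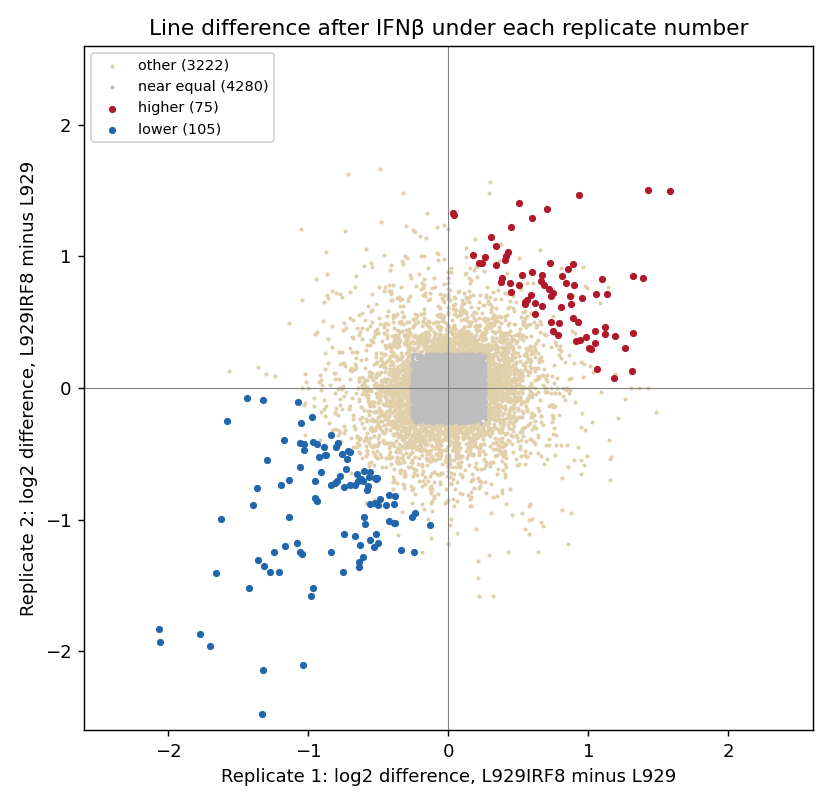
Log2 difference, L929IRF8 minus L929, under replicate 1 (horizontal) and replicate 2 (vertical), 1 point a gene, coloured by class. Lower genes fill the lower left and the higher genes the upper right, and the classes require arrays that do not overlap. Gbp2 stands at -2.06 and -1.93, the lowest in the mean among lower genes whose brighter line averaged at least 100. Oas2 reaches -2.48 under replicate 2.

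Both L929IRF8 arrays lay under both L929 arrays in 1008 genes (13.1%) and above both in 916 (11.9%). Of 134 genes above the bound in the 18 lists of interferon genes, which cover the pathway's receptors, regulators and effectors, 54 lay under and 9 above without overlap. By class, 21 of the 134 were lower, 43 near equal and 0 higher. Their median log2 difference was -0.20, -0.19 under replicate 1 and -0.24 under replicate 2, against a median of 0.00 over all genes. The difference was below 0 in 102 of the 134 and under both replicate numbers in 77, while 16 were above 0 under both. Of all 7682 genes 2054 were below 0 under both (26.7%) and 2074 above 0 under both (27.0%). In the limma fit without a term for the replicate number, Oas1b was the one interferon gene that passed.

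**Figure D3:**
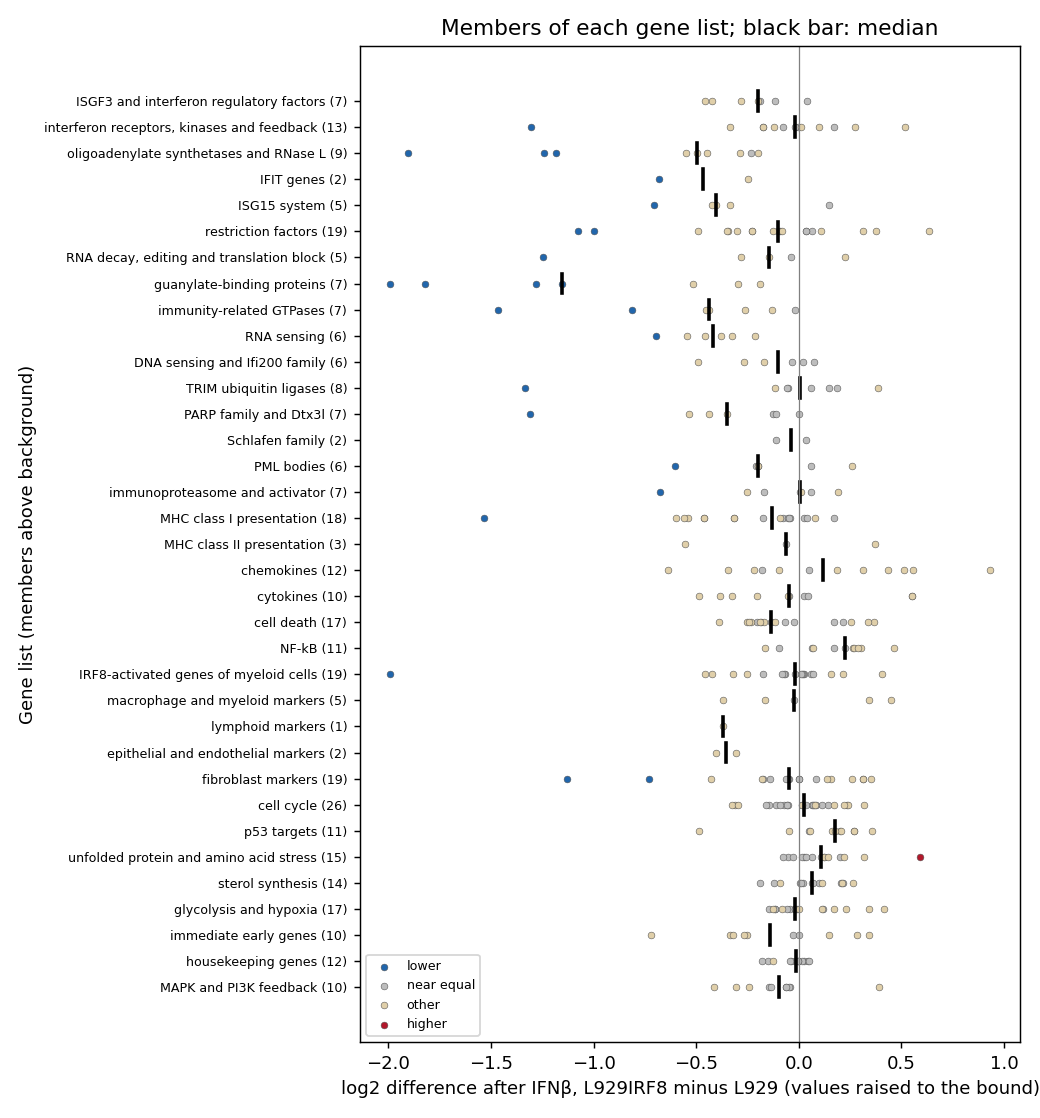
Log2 difference, L929IRF8 minus L929, of each list member above the bound, with the median as a black bar and colours for the classes. Guanylate-binding proteins have the lowest median, -1.15, and 11 of 12 housekeeping genes are near equal.

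The regulators at the head of the pathway differed by less than the fold set for the lower class. The transcription factor Irf1 read 6565.2 and 5884.0 in L929IRF8, and 7172.1 and 6988.2 in L929. Irf2, a related factor that competes at the same elements, read 5514.2 and 5111.8 in L929IRF8, and 5969.8 and 5544.3 in L929. Irf3, the factor activated by virus sensing, read 1227.9 and 1266.2 in L929IRF8, and 1171.9 and 1257.8 in L929. All 3 were near equal, and the arrays of Irf1 and Irf2 did not overlap, with L929IRF8 under L929. For Irf1 this is the brightest probe, and its further probes, at 0.79 to 0.87 of the L929 level, fell outside near equal. Irf9, the DNA-binding part of ISGF3, read 1111.1 and 1163.8 in L929IRF8, and 1186.2 and 1435.7 in L929. Irf7, which amplifies interferon production, read 434.4 and 395.4 in L929IRF8, and 736.3 and 440.9 in L929. Neither overlapped between the lines. Of the 7 regulators 3 were near equal, 0 lower and 0 higher, 4 lay under L929 without overlap, and the median was -0.20. Stat2, a further part of ISGF3, reached 0.82 of the L929 level, and Irf5 0.75.

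Of 13 receptor, kinase and feedback genes 1 was lower, 5 were near equal and 7 met none of the rules. The inhibitor Socs3 was near equal, at 1050.9 and 1099.5 in L929IRF8 and 882.3 and 1031.8 in L929. Usp18, which removes ISG15 and dampens receptor signalling, read 14354.3 and 11476.3 in L929IRF8, and 16621.1 and 15734.8 in L929. Jak2, a kinase of cytokine receptors, read 370.7 and 331.1 in L929IRF8, and 255.6 and 234.8 in L929. Its arrays did not overlap, with L929IRF8 above, at 1.43-fold. The lower member was Batf2, a basic leucine zipper factor that partners IRFs, at 587.5 and 575.4 in L929IRF8 and 1358.9 and 1517.6 in L929. That is 2.47-fold (adjusted p = 0.373, limma).

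The guanylate-binding proteins, GTPases that attack the vacuoles of intracellular pathogens, stood furthest apart. Of 7 above the bound 4 were lower and 0 near equal, and all 7 differences were below 0, with a median of -1.15. Gbp2 read 784.9 and 654.7 in L929IRF8, and 3268.8 and 2491.6 in L929. The lines did not overlap, as the lower class requires. The difference of Gbp2 was 3.98-fold, or 719.8 ± 92.1 in L929IRF8 against 2880.2 ± 550 in L929 (SD, n = 2 each). Its second probe read 72.9 and 69.5 in L929IRF8, and 407.0 and 219.3 in L929, also without overlap. Gbp2b read 968.8 and 680.9 in L929IRF8, and 3313.8 and 2485.5 in L929, 3.53-fold lower in L929IRF8. Neither passed in that fit (adjusted p = 0.683 for Gbp2 and 0.355 for Gbp2b, limma). Gbp2 and Gbp2b are close paralogs, so a probe may read both.

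Gbp3 read 2286.5 and 1710.1 in L929IRF8, and 4768.2 and 4055.9 in L929. Gbp7 read 519.1 and 282.5 in L929IRF8, and 1022.2 and 846.5 in L929. Further probes of both genes were also lower, at 2.50-fold for Gbp3 and 2.11-fold for Gbp7. The remaining members ran closer. Gbp5 overlapped, at 318.4 and 181.6 in L929IRF8 and 440.1 and 197.7 in L929, and so did Gbp10. Gbp11 did not overlap, at 74.0 and 81.0 in L929IRF8 and 123.8 and 99.0 in L929.

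The immunity-related GTPases, a sister family that also acts on pathogen vacuoles, were mixed. Of 7 members 2 were lower and 1 near equal, with a median of -0.44. Tgtp1 read 153.5 and 64.6 in L929IRF8, and 410.9 and 184.7 in L929, 2.77-fold lower. Gm4841 read 207.5 and 191.5 in L929IRF8, and 314.0 and 391.7 in L929. By contrast Irgm1, a regulator of the family and one of the brightest genes of the array, was near equal at 24703.3 and 21965.9 in L929IRF8 and 22085.5 and 25146.9 in L929. Its lines overlapped, though a dimmer probe read 3593.4 and 3795.2 in L929IRF8 and 4709.9 and 4191.6 in L929, without overlap. The brighter Irgm1 probe already read 19150.5 and 19150.5 in untreated L929IRF8, and 17407.3 and 19300.2 in untreated L929. Tgtp1 and Gm4841 lay under the bound on every untreated array. Irgm2, at 4689.3 and 4438.5 in L929IRF8 and 5939.8 and 6406.2 in L929, did not overlap and reached 0.74 of the L929 level.

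The oligoadenylate synthetases make the messenger that switches on the RNA-degrading enzyme RNase L. All 9 members were below 0 in difference, with 3 lower, 1 near equal and a median of -0.50. Oas1b, whose probe ILMN_2613140 gave the 1 call, read 214.8 and 217.8 in L929IRF8, and 482.9 and 499.9 in L929. It was 2.27-fold lower (log2 difference -1.13 ± 0.03, SE, limma adjusted p = 0.00719). Its values on the untreated arrays, from -10.5 to -3.2, were set to 0 and so add no spread to its error. With the 4 IFNβ arrays alone its adjusted p was 0.374, it was 0.0866 or 0.119 when either line lost an untreated array, and over the alternatives it ran from 0.00212 to 0.589. A second Oas1b probe read 135.2 and 64.1 in L929IRF8, and 272.9 and 338.7 in L929, and did not pass (adjusted p = 0.608, limma).

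Oas2 read 1058.0 and 390.8 in L929IRF8, and 2658.9 and 2177.0 in L929, 3.74-fold lower. Oas1d, dim in both lines, read 42.0 and 22.9 in L929IRF8, and 82.0 and 67.8 in L929. Oasl1, which restrains the translation of Irf7 in mouse cells, was near equal at 2970.2 and 2843.8 in L929IRF8 and 3487.4 and 3343.5 in L929. Its arrays did not overlap, with L929IRF8 under L929. Its further probes kept that order without overlap, at 1.37-fold and 1.28-fold lower, and fell outside near equal. The Oas1 genes are near copies of each other, so their probes may share transcripts.

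Among the other antiviral effectors, the brightest differences were those of Rsad2 and Ifit3. Rsad2, the enzyme viperin that makes a chain-ending nucleotide, read 11562.9 and 6016.7 in L929IRF8, and 19483.4 and 15819.8 in L929. Ifit3, of the family that binds viral RNA, read 14457.7 and 10014.0 in L929IRF8, and 21655.9 and 17174.3 in L929. Both were classed lower, which requires lines that do not overlap, and Rsad2 was 2.10-fold lower. Isg20, an RNA exonuclease, read 150.7 and 135.7 in L929IRF8, and 357.8 and 321.9 in L929, 2.37-fold lower. Rtp4 read 94.9 and 69.9 in L929IRF8, and 148.0 and 179.3 in L929.

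Of 19 restriction factors 2 were lower and 5 near equal. Ifitm3, which blocks virus entry at endosomes, was near equal at 19483.4 and 15997.8 in L929IRF8 and 20128.1 and 17605.3 in L929. Its relative Ifitm2 was near equal too. Eif2ak2, the RNA-activated kinase PKR, was near equal at 6016.7 and 5309.7 in L929IRF8 and 6039.5 and 5556.9 in L929. Mx1, a GTPase against influenza viruses in mice, overlapped, at 2049.9 and 974.0 in L929IRF8 and 1615.2 and 1387.2 in L929.

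The ISG15 system tags proteins with a ubiquitin-like modifier, and 1 of its 5 members was lower. Uba7, its activating enzyme, read 3185.4 and 2109.3 in L929IRF8, and 4173.6 and 4289.6 in L929. Isg15 itself read 6615.2 and 5993.5 in L929IRF8, and 9116.0 and 7608.0 in L929, without overlap. Ube2l6, its conjugating enzyme, kept the same order at 531.2 and 514.6 in L929IRF8 and 763.9 and 641.3 in L929. Both stood at about 0.75 of the L929 level, between the classes.

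Among the sensors of nucleic acids, 1 of 6 RNA sensing genes was lower and 0 near equal, with a median of -0.42. Ddx58, which encodes the RNA sensor RIG-I, read 995.5 and 725.2 in L929IRF8, and 1410.0 and 1344.1 in L929. Of 6 DNA sensing and Ifi200 family genes 0 were lower and 3 near equal, with a median of -0.10. The DNA exonuclease Trex1 was near equal at 535.6 and 645.7 in L929IRF8 and 545.7 and 573.3 in L929. Ifi202b was near equal at 10090.5 and 8336.2 in L929IRF8 and 9800.0 and 8989.5 in L929. Its second probe fell outside near equal, at 5361.1 and 3670.5 in L929IRF8 and 5348.7 and 5100.7 in L929. Untreated, the brighter probe read 768.1 and 1204.1 in L929IRF8, and 2019.6 and 1841.5 in L929, without overlap.

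The ubiquitin ligase Trim21, a receptor for antibodies inside cells, read 546.2 and 489.7 in L929IRF8, and 1317.8 and 1288.8 in L929. It was 2.52-fold lower, and its second probe 2.37-fold. The 7 other TRIM ligases and relatives held 5 near equal genes, among them Pml at 5471.6 and 5471.6 in L929IRF8 and 5688.5 and 4833.6 in L929. In a list of 7 genes that holds PARP enzymes, which attach ADP-ribose, and the tudor domain gene Tdrd7, Parp12 was lower at 27.8 and 36.2 in L929IRF8 and 85.7 and 72.3 in L929. Tdrd7 and Parp3 were near equal. Sp100, a component of PML bodies, was lower at 151.9 and 104.2 in L929IRF8 and 217.3 and 168.1 in L929.

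Of 18 genes of MHC class I presentation, which shows peptides to T cells, 1 was lower, 8 were near equal and 9 met none of the rules. The difference was below 0 in 14 of the 18, and the median was -0.13. B2m, the light chain of class I molecules, was near equal at 23002.2 and 18515.6 in L929IRF8 and 24270.4 and 18601.7 in L929. Tap2, a subunit of the peptide transporter, was near equal at 4005.8 and 2581.8 in L929IRF8 and 3786.5 and 2937.2 in L929. The lower gene was H2-T10, a nonclassical class I gene, at 31.8 and 19.2 in L929IRF8 and 100.6 and 62.8 in L929, where related H2 genes may share the probe. Among 7 immunoproteasome genes Psmb10 was lower, at 2472.6 and 2044.6 in L929IRF8 and 4102.5 and 3136.4 in L929, while 3 were near equal.

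The listed chemokines and cytokines held no gene classed lower or higher, classes that held only 1.37% and 0.976% of all genes above the bound. The 12 chemokines had a median of 0.12, with 0 lower, 0 higher and 2 near equal, and the 10 cytokines a median of -0.05 with 3 near equal. Ccl8, which attracts monocytes, read 102.3 and 101.1 in L929IRF8, and 67.1 and 71.4 in L929, 1.47-fold higher without overlap. Il6 read 179.9 and 169.6 in L929IRF8, and 122.2 and 115.8 in L929, also 1.47-fold higher. Il15, a growth factor of lymphocytes, ran the other way at 936.6 and 1144.5 in L929IRF8 and 1400.5 and 1502.2 in L929. Cxcl10 overlapped between the lines, at 9580.6 and 2209.3 in L929IRF8 and 12032.8 and 4250.2 in L929.

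Of 37 listed genes that IRF8 activates in myeloid cells, 31 were on the array and 19 above the bound. They held 1 lower gene (Gbp2, already described), 11 near equal and 0 higher, with a median of -0.02, shares close to those over all genes, of which 55.7% were near equal. Il18 was near equal at 804.3 and 309.8 in L929IRF8 and 691.5 and 348.5 in L929. Slc11a1, a metal transporter of phagosomes, was near equal at 6071.8 and 6458.0 in L929IRF8 and 5619.2 and 6842.4 in L929. The cystatin gene Cst3 and the lysosomal ceramidase Asah1 were near equal too.

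Of the 59 lower genes whose brighter line averaged at least 100, 18 stood in the interferon lists and 41 did not. Those lists hold 134 of all 7682 genes above the bound. Cd274, which encodes the checkpoint ligand PD-L1, read 752.2 and 324.3 in L929IRF8, and 1548.0 and 1392.4 in L929, 2.97-fold lower. Hdc, the histamine-forming enzyme, read 328.4 and 288.4 in L929IRF8, and 840.9 and 714.7 in L929. Pstpip1, an adaptor of the cytoskeleton, read 413.7 and 348.5 in L929IRF8, and 1029.5 and 887.5 in L929. Each of these was at least 2.5-fold lower without passing the limma test (adjusted p = 0.870, 0.253 and 0.224). That their lines did not overlap follows from the rule of the class.

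Dusp28, a phosphatase, read 62.8 and 43.4 in L929IRF8, and 203.9 and 168.9 in L929, 3.56-fold lower. Btc, the growth factor betacellulin, read 84.4 and 37.7 in L929IRF8, and 210.9 and 166.3 in L929. Bnip5 read 26.9 and 30.7 in L929IRF8, and 112.9 and 109.0 in L929. In Bnip5 and Btc the L929IRF8 arrays came close to the bound, so their ratios of 3.86-fold and 3.32-fold rest on dim values. Pdgfra, a growth factor receptor of fibroblasts and the lower gene with the second smallest p, read 103.4 and 112.0 in L929IRF8, and 218.9 and 253.4 in L929 (2.19-fold, adjusted p = 0.167, limma). Tbrg1 had a smaller ratio with tight replicates, at 2398.7 and 2162.9 in L929IRF8 and 3910.1 and 3610.5 in L929, 1.65-fold lower.

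**Figure D4:**
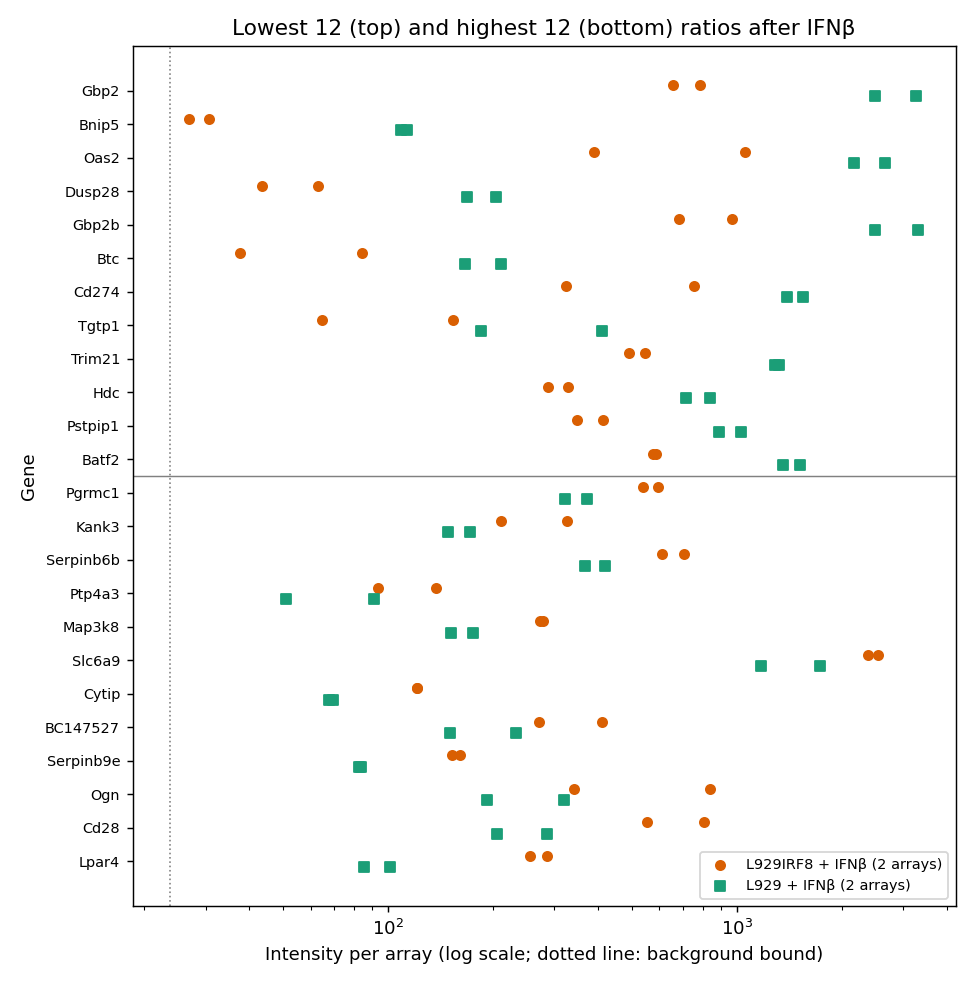
Intensity on each of the 4 IFNβ arrays (log scale) of the 12 genes with the lowest and the 12 with the highest ratio among classed genes whose brighter line averaged at least 100. Circles are L929IRF8 and squares L929, drawn above and below each other. The classes require that no gene's circles and squares overlap, and Ptp4a3 comes closest with 93.5 in L929IRF8 against 90.8 in L929.

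The higher class was smaller, with 20 genes at that brightness. Of these, 0 stood in the interferon lists, which hold only 134 of all 7682 genes above the bound. Lpar4, a receptor for lysophosphatidic acid, read 255.0 and 285.8 in L929IRF8, and 85.1 and 101.0 in L929, 2.91-fold higher (adjusted p = 0.243, limma). Cd28, the costimulatory receptor known from T cells, read 552.3 and 807.9 in L929IRF8, and 205.2 and 285.2 in L929, 2.76-fold higher. Its other 2 probes were 2.48-fold and 2.52-fold higher, all without overlap. Of the T cell receptor genes, Cd3d and Cd3e were under the bound on the 4 arrays, and Cd3g read 90.5 and 74.9 in L929IRF8, and 133.4 and 84.7 in L929.

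Ogn, a matrix proteoglycan, read 837.7 and 342.1 in L929IRF8, and 319.9 and 191.6 in L929, 2.16-fold higher. Here 342.1 in L929IRF8 replicate 2 lay near 319.9 in L929 replicate 1, so the replicate numbers spread as far as the lines. The glycine transporter Slc6a9 read 2544.7 and 2386.1 in L929IRF8, and 1171.1 and 1731.9 in L929. The protease inhibitors Serpinb9e and Serpinb6b were 1.89-fold and 1.67-fold higher, and both belong to gene clusters of close copies. Map3k8, a kinase of inflammatory signalling, read 277.7 and 272.2 in L929IRF8, and 151.2 and 174.6 in L929. BC147527, Cytip, Ptp4a3, Kank3 and Pgrmc1 complete the 12 highest, at 1.64-fold to 1.78-fold.

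Lpar4 was also among the 5 higher genes with the smallest p, and the other 4 had smaller ratios. Grk6, a kinase of G protein-coupled receptors, read 238.2 and 253.6 in L929IRF8, and 158.5 and 170.8 in L929, 1.49-fold higher (adjusted p = 0.191, limma). Lrrn3 read 46.9 and 48.7 in L929IRF8, and 34.8 and 31.8 in L929. Rrp1 was 1.29-fold higher without overlap, and Tnrc18 at least 1.47-fold, since both its L929 arrays lay under the bound. Lrrn3 and Tnrc18 are dim and lay the other way in untreated cells, without overlap. Untreated Lrrn3 read 51.7 and 53.2 in L929IRF8, and 59.9 and 58.3 in L929. Untreated Tnrc18 read 25.4 and 26.8 in L929IRF8, and 36.5 and 35.8 in L929.

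The untreated arrays, which share no array with the comparison after IFNβ, divide the bright genes. In untreated cells 92 of 7682 genes met the rule for lower (1.2%) and 100 that for higher (1.3%). Of the 59 bright lower genes 17 lay at or under the bound on all 4 untreated arrays (28.8%), against 110 of all 7682 genes (1.43%). By the rule 27 of the 59 were near equal there, which counts those 17, 9 were lower and 2 higher. Of all 7682 genes 3890 were near equal untreated. Of the 20 bright higher genes 5 were higher untreated, 2 near equal and 0 lower, and 16 were above 0 under both replicate numbers.

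Gbp2b, Oas2, Gbp3, Gbp7, Rsad2, Hdc and Btc were among the 17 at background. Trim21, by contrast, read 47.4 and 25.2 in untreated L929IRF8, and 27.0 and 26.9 in untreated L929. Pdgfra differed in both states, at 235.3 and 213.5 in untreated L929IRF8 and 334.0 and 341.4 in untreated L929. Prl2c3, of the proliferin family, was lower in both states, at 54.5 and 89.4 in untreated L929IRF8 and 165.6 and 145.6 in untreated L929. Gata6, Igf1, Kcnk2, Dab2 and Lmo2 were also lower in both states.

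Among the higher genes Lpar4 read 278.2 and 263.8 in untreated L929IRF8, and 99.1 and 139.9 in untreated L929. Cd28 read 238.3 and 530.9 in untreated L929IRF8, and 96.6 and 192.6 in untreated L929. Both kept the lines apart before IFNβ was given. BC147527, by contrast, was at background on all untreated arrays. Il7, a lymphocyte growth factor, stood in opposite classes, at 85.4 and 102.5 in untreated L929IRF8 and 44.9 and 66.3 in untreated L929, but 135.9 and 157.1 in L929IRF8 with IFNβ and 223.5 and 219.1 in L929 with IFNβ. The difference between the states was tested for all probes as the interaction of the limma fit, which called 1 of 25697 (0.00389%), Oas1b.

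**Figure D5:**
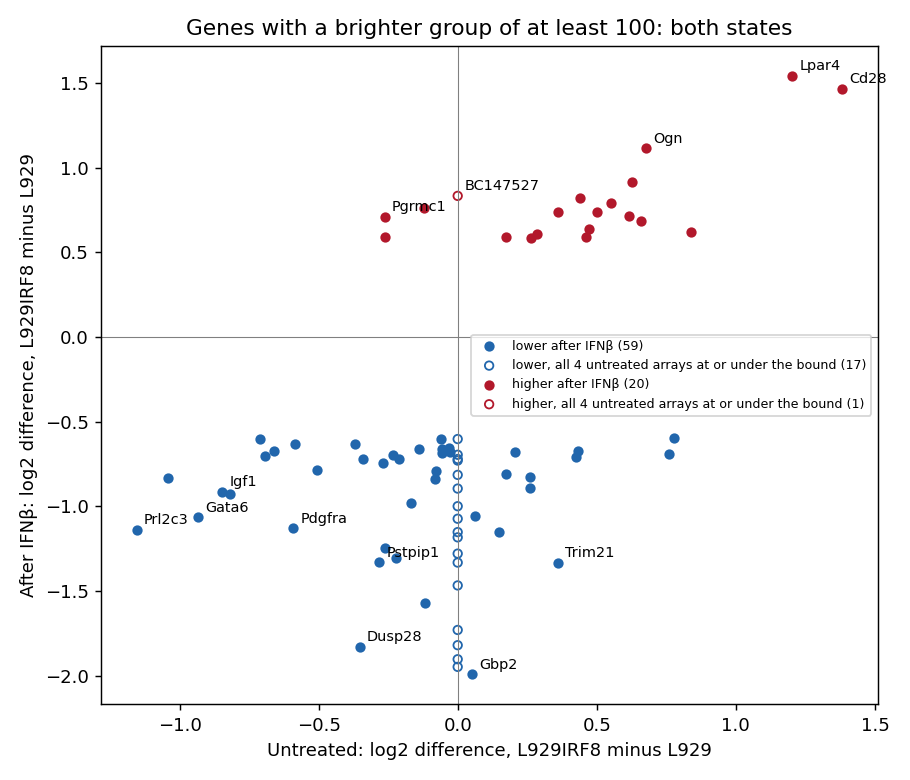
Log2 difference, L929IRF8 minus L929, after IFNβ (vertical) and in untreated cells (horizontal) for the 59 lower and 20 higher genes with a brighter line of at least 100; open points lie at or under the bound on all 4 untreated arrays. The 17 open lower points stand at 0 on the horizontal axis, while Lpar4 and Cd28 are high in both states.

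Lists of other processes held few classed genes. Of all genes above the bound, too, only 1.37% were lower and 0.976% higher, and 55.7% were near equal. Of 12 housekeeping genes 11 were near equal, with Actb at 23138.3 and 21477.7 in L929IRF8 and 23221.2 and 20660.3 in L929. Of 26 cell cycle genes 16 were near equal, 0 lower and 0 higher, with a median of 0.02. Of 19 fibroblast genes 9 were near equal and 2 lower, Pdgfra and the matrix protease Mmp2, with Mmp2 at 66.5 and 66.8 in L929IRF8 and 136.0 and 89.9 in L929. Of 11 NF-kB genes 4 were near equal and 0 classed, and their median was 0.23. The stress list of 15 held 1 higher gene, Slc3a2, and 10 near equal ones. Where a lower gene had further probes above the bound, 24 of 27 such probes pointed the same way and 16 met the rule for lower. For higher genes 7 of 7 pointed the same way and 2 met the rule.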

How the data were processed

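The deposited values are linear intensities of Illumina mouse bead arrays. The sources used here do not give the authors' processing tool. Of the deposited intensities 28.1% to 28.3% lie below 0, and once sorted the arrays differ by no more than 1.7, so they were already background-subtracted and quantile normalized, and were not normalized again. Quantile normalization hides a shift shared by most genes. Probes were named from the platform annotation (23978 with 1 symbol, 1719 with none), and promoters come from RefSeq (GRCm38.p6).

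For the test, negative intensities became 0 and log2(intensity + 16) was fitted with limma 3.58.1 in R 4.3.3, with all 8 arrays, 1 coefficient a group, and Benjamini-Hochberg adjustment over 25697 probes (4 residual degrees of freedom plus a prior of 0.684). Classes, ratios and list medians use values raised to 23.7. The script was tested on simulated data. Genes were named by rule: called probes, the 12 lowest and 12 highest ratios, the 5 smallest p of each direction, and members of the lists (lowest, highest, nearest to 0, brightest). A few others were chosen after their values were seen. The members, and the 35 lists with 573 genes, were chosen with earlier results of these data known. No set test was run.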

Additional observations from a re-analysis of the deposited data

Results flagged for a closer look

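Oas1b was singled out because the difference between the lines after IFNβ differed from that in untreated cells in the limma interaction test. The interaction was -1.13 ± 0.04 on the log2 scale (SE, adjusted p = 0.0363, limma). Its untreated values all lie below 0 and were set to 0, so the interaction equals the difference after IFNβ.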

How the results depend on the processing

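The count of 1 called probe became 0 with the 4 IFNβ arrays alone (also with only probes above the bound), with a replicate block (also on the 4 IFNβ arrays) and with only probes above the bound. It was 54 with a pseudocount of 1, 6 with values raised to the bound, 19 with an intensity trend, 5 with robust eBayes, and 0 to 266 when 1 array was left out, 0 without any 1 untreated array; the lone array left in a group is assumed to vary like the other groups. With the replicate block and only probes above the bound, a setting added after the data were seen, 16 probes passed, 13 lower and 3 higher, among them Oas1b (adjusted p = 0.0457), Gbp2, Gbp2b, Gbp3, Isg20, H2-T10, Hdc, Batf2, Lpar4 and Cd28. An unadjusted p under 0.05 was then reached by 801 of 11341 probes, against 567.05 expected, and over all probes by 1793 with the block and 2123 with the block on the 4 IFNβ arrays. Deviations of same-numbered arrays from their group means correlated at 0.441 to 0.527 over 6 pairs of groups. With 2 numbers the samples share only a number by the rule used here, so the block stays an alternative. The Oas1b adjusted p was 0.374 and 0.422 with the 4 IFNβ arrays (all probes, and those above the bound), 0.0812 with the replicate block, 0.589 with the block on those 4 arrays, 0.134 with only probes above the bound, 0.103 with an intensity trend, and 0.0116 to 0.119 with 1 array left out.

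The 105 lower genes became 54 with a mean above 100, 172 counting every probe and 27 at 2-fold, and 205 to 274 with 1 array left out, where fewer arrays must not overlap. The 75 higher genes became 36 and 17 with a mean above 50 and 100, 119 counting every probe, 6 at 2-fold, 38 on log2(value + 16), and 193 to 296 with 1 array left out. The 4280 near equal genes became 6809 within 1.5-fold. Of 504 repeats over the 24 genes with the lowest and highest ratios 0 reversed and 9 gained a call. List medians moved beyond their spread in 110 of 350 repeats.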
